A study of Mus musculus with 6 samples.

Results

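The cytosolic nucleic acid sensors described here are 9 genes whose proteins detect RNA or DNA inside the cell or pass that signal on: Ddx58 (also called Rigi), Ifih1, Dhx58, Mavs, Sting1 (formerly Tmem173), Zbp1, Trim25, Eif2ak2 and Ifi203. The rule takes them by gene name and uses no measured value, although the set was drawn up with earlier results of these data known. It takes every probe set to which the platform table gives that single gene, and each of the 9 genes had exactly 1 such probe set, out of 35557 probe sets in all and 23410 with at least 1 gene symbol. Their signal was measured on 6 Affymetrix arrays of primary mouse microglia, the resident macrophages of the brain, with 3 arrays of fosB-null and 3 of wild-type cells. The fosB-null cells came from mice homozygous for the null allele fosBG, obtained by intercrossing heterozygotes of backcross generation N20 to C57BL/6J, and the wild-type cells from C57BL/6J mice, not stated to be littermates. In both groups, cortex of mice aged 2 days was cultured for 10 days, and the collected microglia were replated for 24 h without a labelled treatment. Fosb encodes a subunit of the AP-1 transcription factor, and its null allele is carried by the whole animal, not by microglia alone. Whether pups were pooled is not stated in the labels.

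Cells recognise foreign nucleic acid partly by where it lies. The helicases RIG-I, the product of Ddx58, and MDA5, the product of Ifih1, bind viral RNA in the cytosol and signal through the mitochondrial adaptor MAVS, while cytosolic DNA activates the enzyme cGAS, which in turn activates the adaptor STING. Both routes switch on type I interferon genes, and many of the sensor genes are themselves induced by interferon, so that their RNA rises in a macrophage exposed to interferon.

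Promoters are printed for the members that carry the interferon-stimulated response element core, the sequence bound by interferon-activated factors, and for the adaptor gene Mavs, which lacks it. The RefSeq promoter table of build GRCm38.p6, with 250 bases before and 50 after each start, gave 7 promoters of 6 of the 9 genes. Entries of members on 1 chromosome were left out of the reading, and no promoter was read for Dhx58, Sting1 or Zbp1. The core, searched as GAAANNGAAA on both strands, was found once in Ddx58, Ifih1 and Eif2ak2 and in 1 of the 2 promoters of Ifi203, and not in Mavs or Trim25. It was held by 3.44% of all 32851 promoters listed. Capitals mark the core, and each sequence runs 5′ to 3′ on the strand of its gene.
Ddx58, minus strand, chr4:40239814-40240075, to base 12 of the transcript: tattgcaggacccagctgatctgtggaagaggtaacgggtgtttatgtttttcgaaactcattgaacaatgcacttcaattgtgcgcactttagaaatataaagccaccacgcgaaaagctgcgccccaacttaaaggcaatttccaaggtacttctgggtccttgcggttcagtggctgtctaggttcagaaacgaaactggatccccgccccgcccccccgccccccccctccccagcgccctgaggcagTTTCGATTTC
Eif2ak2, minus strand, chr17:78882545-78882822, to base 28 of the transcript: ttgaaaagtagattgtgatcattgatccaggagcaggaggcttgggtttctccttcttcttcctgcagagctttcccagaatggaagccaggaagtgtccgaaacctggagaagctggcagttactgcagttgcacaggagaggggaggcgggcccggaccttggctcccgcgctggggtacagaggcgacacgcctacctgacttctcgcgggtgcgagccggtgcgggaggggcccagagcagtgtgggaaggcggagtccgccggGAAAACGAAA
Ifi203, minus strand, chr1:173942493-173942742, the promoter with the core: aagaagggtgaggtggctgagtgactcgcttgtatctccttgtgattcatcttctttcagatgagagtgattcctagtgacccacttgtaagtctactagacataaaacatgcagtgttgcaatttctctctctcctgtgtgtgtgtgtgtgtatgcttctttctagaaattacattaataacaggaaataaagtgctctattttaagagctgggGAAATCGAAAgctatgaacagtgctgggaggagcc
Ifih1, minus strand, chr2:62646206-62646233, the core with its flanks only: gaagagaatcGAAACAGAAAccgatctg
Mavs, plus strand, chr2:131233813-131234062, no core: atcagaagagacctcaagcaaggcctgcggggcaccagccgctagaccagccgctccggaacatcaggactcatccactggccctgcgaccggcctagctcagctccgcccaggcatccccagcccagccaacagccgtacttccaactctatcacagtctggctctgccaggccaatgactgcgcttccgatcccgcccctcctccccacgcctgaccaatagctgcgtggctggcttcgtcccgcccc
In Ddx58, Eif2ak2 and Ifih1 the core lay just after the start, at transcript bases 3 to 12, 19 to 28 and 33 to 42, and in Ifi203 its first base was 35 bases before the start. The core of Ddx58 reads in the opposite orientation to the other 3. A second element, the gamma-activated sequence core TTCNNNGAA (both strands), was found in Eif2ak2 only among the 6 genes, against 8.30% of all promoters. The AP-1 site TGACTCA, searched on both strands, was in none of the 7 windows and in 5.20% of all promoters.

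Across all genes the arrays set narrow limits. Signals are log2 values, so that a difference of 1 is a 2-fold change, and groups were compared with limma, two-sided, with p-values adjusted by Benjamini-Hochberg over the 23410 probe sets with a gene symbol and a threshold of 0.05. The fit called 1 probe set, or 0.00427%, which was that of the complement receptor gene C5ar2, and an unadjusted p under 0.05 was reached by 169, or 0.722%. With the replicate number as a block it called 0, and with that number as a random block 47. Same-numbered arrays of the groups held exactly the same value in 62.3%, 54.7% and 56.0% of tested probe sets, whereas arrays of different number shared at most 0.013%. The arrays are therefore described as 3 pairs, and an exact 0 within a pair is a tie in the deposited values that measures no equality. The Fosb probe set itself read 8.01, 8.14 and 7.92 on the wild-type and 7.82, 8.05 and 7.83 on the fosB-null arrays, a difference of -0.12, and since its position on the null allele is unknown it gives no check of the genotypes. No member lies on the chromosome of Fosb. Nothing in the labels says whether the arrays of a group came from separate cultures or animals beyond calling them biological replicates, so p-values measure the spread between these samples.

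Of the 9 genes, 0 passed the adjusted threshold, and 1, Dhx58, reached an unadjusted p under 0.05 by limma. With the replicate block 4 genes did so (Ddx58, Ifih1, Dhx58 and Zbp1, all lower in fosB-null cells), against 2.31% of all tested probe sets. With the random block 5 did (Ddx58, Dhx58, Zbp1 and Trim25 lower, Sting1 higher), against 9.63%, and none of the 9 passed the adjusted threshold in either fit. Both shares include 6508 probe sets tied in all 3 pairs, which cannot reach that level, whereas no member was tied in all 3. Shares without the ties were not computed, so the excess over these shares cannot be read as a trait of the members. The mean was below wild-type in 7 genes and above it in 2, where 41.3% of all tested probe sets lay below, or 58.0% of those at least as bright as the dimmest member. In 6 genes the difference was smaller than the SD of either group, and in Dhx58, Ddx58 and Sting1 it was larger than both.

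**Figure D1:**
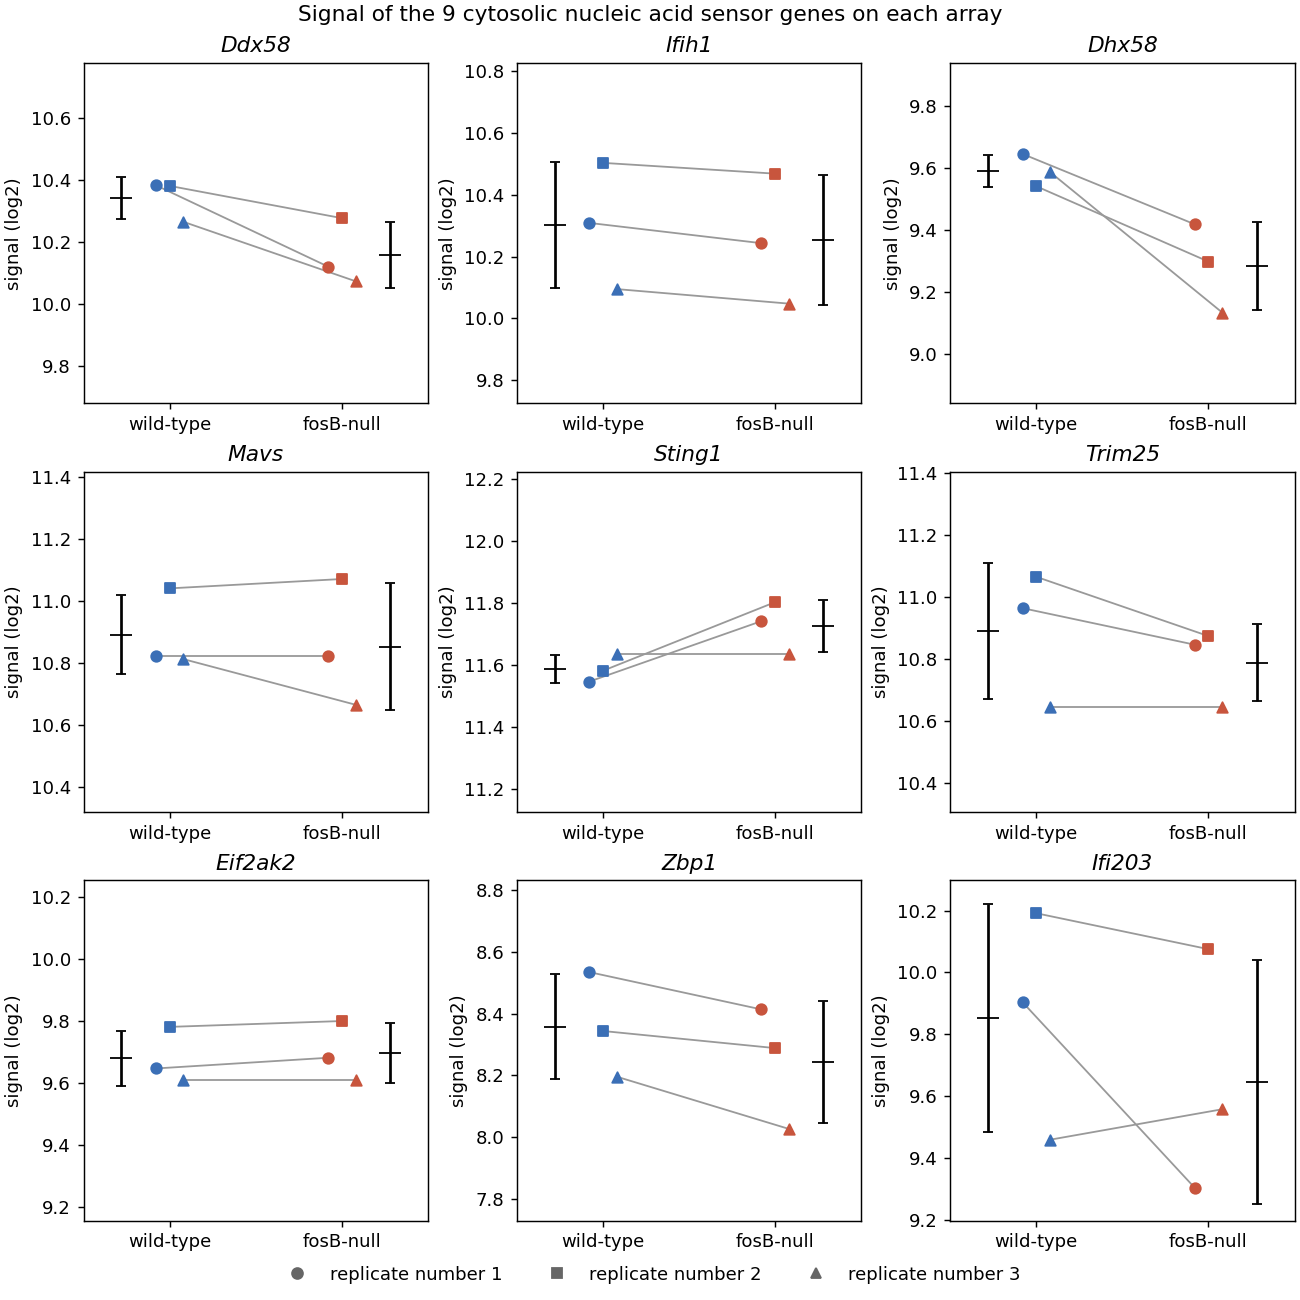
Log2 signal of each sensor gene on the 6 arrays, wild-type in blue and fosB-null in red, with a grey line joining arrays of the same replicate number and the mean ± SD of each group (n = 3) at the side. Every panel spans the same log2 range. The Dhx58 groups do not overlap, and in Ifih1, Mavs, Trim25, Eif2ak2, Zbp1 and Ifi203 the replicate number takes more of the variation than the group.

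The 3 RIG-I-like receptors are RNA helicases of the cytosol, and all 3 had lower means in fosB-null microglia. Dhx58 encodes LGP2, which binds RNA but lacks the signalling domains of the others and tunes their activity. Its log2 signal was 9.65, 9.54 and 9.59 on the wild-type arrays and 9.42, 9.30 and 9.13 on the fosB-null arrays in replicate order. Every fosB-null array was below every wild-type array, which was the case for 1 of the 9 genes and, in this direction, for 0.709% of all tested probe sets. A tie in any pair excludes such a separation. All 166 of these probe sets were among the 3520 with no tie, as Dhx58 was. The difference was -0.31 (standard error 0.09, 95% interval -0.52 to -0.09), or 1.24-fold lower, with a limma unadjusted p of 0.0118 (adjusted p = 1). Within the pairs it was -0.23, -0.24 and -0.45. Among all tested probe sets 0.547% had a difference further below 0. It was the largest difference of the 9 genes in size and ran from -0.38 to -0.23 over the 19 alternative analyses. As the groups did not overlap, leaving out arrays could not turn its sign. Several other alternatives change only the standard error or the adjustment and return the same difference.

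Ddx58 encodes RIG-I, which recognises short double-stranded RNA with a 5′ triphosphate. The log2 signal was 10.38, 10.38 and 10.26 in wild-type and 10.12, 10.28 and 10.07 in fosB-null arrays. The groups overlapped only through fosB-null array 2, which was just above wild-type array 3. The difference was -0.19 (standard error 0.08, 95% interval -0.38 to 0.01), or 1.14-fold lower, with a limma unadjusted p of 0.0589. The pairs differed by -0.26, -0.10 and -0.19. Its range over the alternatives was -0.25 to -0.14, always below wild-type, though several of them cannot change the difference.

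Ifih1 encodes MDA5, the sensor of long double-stranded RNA. Its log2 signal was 10.31, 10.50 and 10.09 in wild-type and 10.24, 10.47 and 10.05 in fosB-null arrays. Here the replicate number ordered the arrays, with number 2 highest and number 3 lowest in both groups, and the groups overlapped throughout. The difference of -0.05 (standard error 0.14, 95% interval -0.39 to 0.29) was therefore far inside the spread of a group, at a SD of 0.20 and 0.21. Within the pairs it was -0.07, -0.03 and -0.05, an almost constant offset, and the standard error with the replicate block was 0.0082, with a limma unadjusted p of 0.0178 (adjusted p = 0.674). Without wild-type replicate 2 or fosB-null replicate 3 the sign turned, to 0.05 in each case, and leaving out wild-type array 3 gave -0.15 and leaving out fosB-null array 2 gave -0.16.

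**Figure D2:**
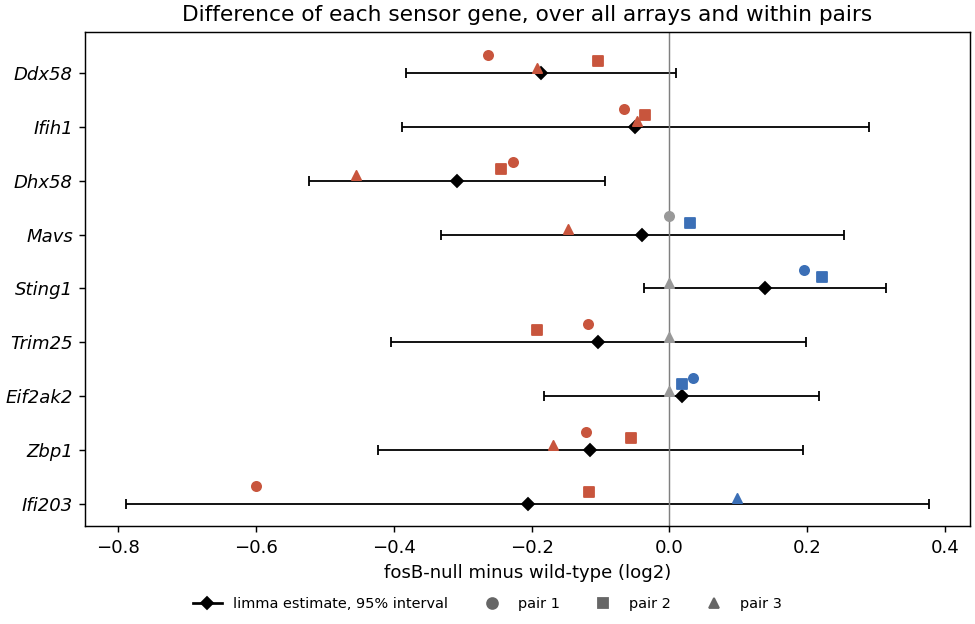
Difference between fosB-null and wild-type for each sensor gene on the log2 scale; black diamonds are the limma estimates with their 95% intervals over all 6 arrays, and the smaller symbols are the 3 pair differences, red below 0, blue above 0 and grey at an exact tie. The interval lies wholly below 0 for Dhx58 alone, and all 3 pairs are below 0 in Ddx58, Ifih1, Dhx58 and Zbp1.

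Of the adaptors, Mavs had nearly the same mean in both groups and Sting1 a higher mean in fosB-null cells. MAVS joins both RNA helicase receptors to the kinases that activate interferon genes. Its gene read 10.82, 11.04 and 10.81 in wild-type and 10.82, 11.07 and 10.66 in fosB-null arrays. The difference was -0.04 (standard error 0.12, 95% interval -0.33 to 0.25), with a tie in pair 1, 0.03 in pair 2 and -0.15 in pair 3. The sign turned when fosB-null array 3 was left out, to 0.05, and when wild-type array 2 was, to 0.04.

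STING sits in the endoplasmic reticulum and relays the signal of cytosolic DNA. Sting1 read 11.55, 11.58 and 11.64 in wild-type and 11.74, 11.80 and 11.64 in fosB-null arrays. The fosB-null arrays 1 and 2 were above all wild-type arrays, and the arrays of number 3 were tied. The difference was 0.14 (standard error 0.07, 95% interval -0.04 to 0.31), or 1.10-fold higher, with a limma unadjusted p of 0.103 (adjusted p = 1). The pairs differed by 0.20, 0.22 and 0. It was above wild-type in all 19 alternatives, between 0.10 and 0.21, though several of them cannot change the difference. Sting1 was 1 of the 2 members with a higher mean. The other was Eif2ak2.

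Trim25 encodes a ubiquitin ligase that promotes RIG-I signalling. Its log2 signal was 10.96, 11.07 and 10.64 in wild-type and 10.85, 10.87 and 10.64 in fosB-null arrays. The arrays of number 3 were the lowest of both groups and exactly tied, and the groups overlapped. The difference was -0.10 (standard error 0.13, 95% interval -0.40 to 0.20), or -0.12 and -0.19 in pairs 1 and 2. Leaving out wild-type array 2 gave -0.02 and leaving out wild-type array 1 gave -0.07, while the absence of wild-type array 3 gave -0.23. With fosB-null array 3 left out it was -0.03.

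Eif2ak2 encodes PKR, a kinase that is switched on by double-stranded RNA and then stops translation by phosphorylating EIF2. It spanned the narrowest range of the 9 genes over the 6 arrays, with a log2 signal of 9.65, 9.78 and 9.61 in wild-type and 9.68, 9.80 and 9.61 in fosB-null arrays. The difference was 0.02 (standard error 0.08), and the 95% interval of -0.18 to 0.22 leaves out changes beyond 0.22 in size. The pairs differed by 0.03, 0.02 and 0. With median centring of the arrays the difference was -0.01.

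Zbp1 encodes a sensor of left-handed nucleic acid that can start necroptosis, a form of cell death. The log2 signal was 8.53, 8.34 and 8.20 in wild-type and 8.41, 8.29 and 8.03 in fosB-null arrays. Number 1 was highest and number 3 lowest in both groups, and the groups overlapped. The difference was -0.11 (standard error 0.13, 95% interval -0.42 to 0.19), with -0.12, -0.06 and -0.17 in the pairs and a limma unadjusted p of 0.406. With the replicate block the unadjusted p was 0.0484, with an adjusted p of 0.674. The size depended on single arrays: leaving out wild-type array 1 gave -0.03 and leaving out fosB-null array 3 gave -0.0070, while the absence of wild-type array 3 or of fosB-null array 1 gave -0.20 in each case.

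Ifi203 belongs to the PYHIN family, whose members bind DNA and lie in a cluster of similar genes. The similarity of the cluster's genes was not examined for these probes, so signal from a neighbour cannot be told apart here. It was the most variable of the 9 genes, at 9.90, 10.19 and 9.46 in wild-type and 9.30, 10.08 and 9.56 in fosB-null arrays. The difference of -0.21 had a standard error of 0.25 (95% interval -0.79 to 0.38), and the pairs differed by -0.60, -0.12 and 0.10. It was -0.04 without fosB-null replicate 1, the lowest array, or without wild-type replicate 2, the highest, but -0.40 when wild-type array 3 was left out and -0.42 when fosB-null array 2 was, and pair 3 ran the other way.

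Of the 9 genes, 6 varied more with the replicate number than with the group. Splitting each gene's sum of squares over the 6 arrays, the number took the larger part in 6 genes, from 70.3% in Ifi203 to 97.8% in Ifih1 and 97.8% in Eif2ak2, and the group took the larger part in 3, with 75.4% in Dhx58, 62.0% in Ddx58 and 61.1% in Sting1. What a number stands for is not stated in the labels. The number has 3 levels and the group 2, which favours the number in such a split, and ties within pairs lower the part of the group. The same split was not made over all tested probe sets, so these counts have no share to stand beside. The fosB-null array 3 was the lowest, or tied for the lowest, in 7 of the 9 genes. Averaged over the members, each centred on its own mean, the arrays stood at 0.08, 0.15 and -0.09 in wild-type and at -0.05, 0.10 and -0.19 in fosB-null cells. The fosB-null array was thus below its wild-type partner in each pair, and array 2 was the highest of both groups.

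**Figure D3:**
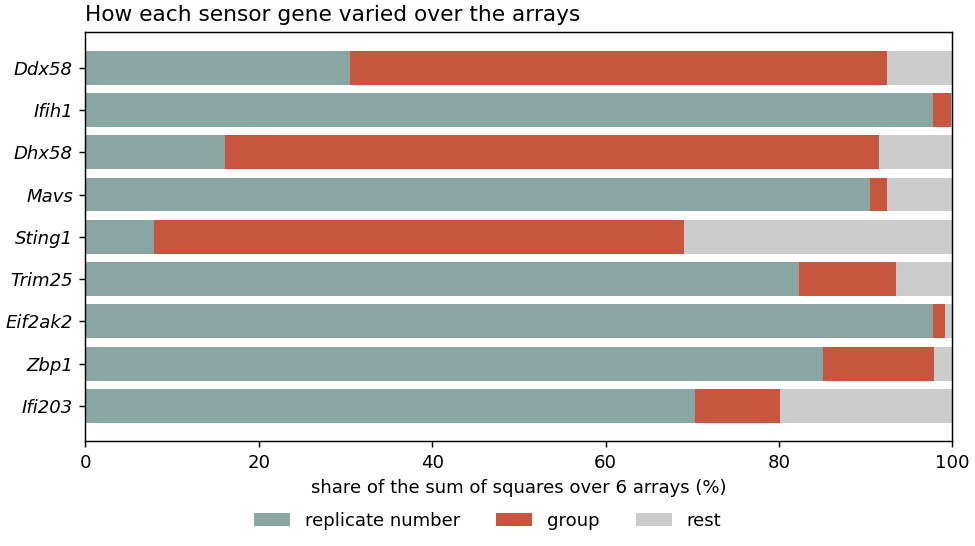
Share of each sensor gene's sum of squares over the 6 arrays (in percent) that went with the replicate number, with the group and with neither. Dhx58, Ddx58 and Sting1 are the 3 genes in which the group takes more than the replicate number.

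As a set, the members had a median difference of -0.10, where the median over all tested probe sets was 0 and that over probe sets with no tie in any pair was -0.03. The median of the 9 pair differences was -0.12, -0.06 and -0.05 in pairs 1, 2 and 3. Over all tested probe sets it was 0 in each pair, and over those with no tie -0.01, -0.02 and -0.04. All 3 pairs were lower in 4 of the 9 genes, against 5.57% of all tested probe sets. Only 5 members had no tie in any pair, and these 4 were among them, whereas of probe sets with no tie 37.1% were lower in all 3 pairs. The median rests on single arrays: it was -0.02 when wild-type replicate 2 was left out and -0.0070 when fosB-null replicate 3 was. Leaving out fosB-null replicate 1 gave -0.04. It was -0.07 without wild-type replicate 1 and -0.20 without wild-type replicate 3, and leaving out fosB-null replicate 2 gave -0.15. Without wild-type replicate 2 or without fosB-null replicate 3, 5 of the 9 genes lay below wild-type. In bulk samples fewer expressing cells and less RNA per cell cannot be told apart.

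The rest of the pathway was examined through 10 lists arranged by role, with 92 of 102 genes measured by a single-gene probe set, of which 0 passed the adjusted threshold in either direction. An unadjusted p under 0.05 was reached by 3, all lower (Ifit1, Oasl2 and Irf7), where 0.453% of all tested probe sets were lower at this level. By their means 57 were below wild-type, 22 above and 13 exactly equal, with a median of -0.03. Of the 92 genes 67 were tied in at least 1 pair, and a tie enters the difference as 0, so small differences in the lists measure no equality.

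Other DNA sensors differed by at most 0.05 in size, apart from Ifi205, another PYHIN gene. Of 11 measured, 3 were below wild-type, 5 above and 3 exactly equal, with a median difference of 0. All but Ifi205, or 10 of the 11, were tied in at least 1 pair, and a tie enters the difference as 0. Ifi205 read 7.59, 8.60 and 7.09 in wild-type and 6.89, 7.49 and 6.93 in fosB-null arrays, a difference of -0.66 (standard error 0.37) and pair differences of -0.69, -1.11 and -0.17. Its groups overlapped, the wild-type arrays were far apart, and it had the largest difference among the pathway genes. Lrrfip1, a nucleic acid binding protein, differed by 0.03. Cgas, the main DNA sensor ahead of STING, differed by 0.05, and Aim2, which forms an inflammasome on DNA, was tied in all pairs. Cgas and Aim2 were picked with their values known.

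Other RNA sensors and co-receptors had differences between -0.05 and 0.05 in all 15 genes measured, of which 8 were below and 7 above wild-type. Nod2, an intracellular receptor best known for bacterial cell wall fragments, differed by -0.05, and Zcchc3, a co-sensor, by 0.05. Dhx58 and Ddx58 differed by more than any of these 15 genes, a comparison that was not tested. Of the 15 genes 11 were tied in at least 1 pair, and a tie enters the difference as 0, whereas Dhx58 and Ddx58 had no tie.

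Downstream of the adaptors 9 of 13 genes were below wild-type, 1 above and 3 exactly equal, with a median of -0.06. Of the 13 genes 9 were tied in at least 1 pair. Irf7, the transcription factor that amplifies interferon production, read 9.24, 9.36 and 8.96 in wild-type and 8.88, 8.995 and 8.72 in fosB-null arrays. Its difference was -0.33 (standard error 0.13), or -0.37, -0.36 and -0.25 in the pairs, with a limma unadjusted p of 0.0358 (adjusted p = 1). Only wild-type array 3 fell within the fosB-null range. Traf2, a signalling adaptor, differed by -0.13 with groups that did not overlap. The kinase gene Tbk1 differed by 0.00, and Ifnb1, which encodes interferon beta, had the same value in both arrays of each pair. Tbk1 and Ifnb1 were picked with their values known.

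Among negative regulators 6 of 11 genes were below wild-type, 3 above and 2 exactly equal, and 9 were tied in at least 1 pair. Usp18, which removes the ubiquitin-like ISG15 and dampens interferon receptor signalling, had a difference of -0.31 (standard error 0.17), with -0.46, -0.37 and -0.10 in the pairs. Trim30a differed by -0.04. Of 9 nucleases and nucleic acid modifiers 7 were below wild-type and 2 exactly equal, all by less than 0.07, but 8 were tied in at least 1 pair. Trex1, the exonuclease that clears cytosolic DNA, differed by -0.06 and the RNA helicase gene Skiv2l by -0.05. Of 7 ubiquitin ligases 6 were below and 1 exactly equal, with Rnf5 at -0.11 and Rnf185 at -0.04.

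The partners of ZBP1 in cell death, 4 genes, lay between -0.05 and 0.03, with Fadd at -0.05 and Mlkl, the executor of necroptosis, at 0.03. All 4 were tied in at least 1 pair, so these small differences measure no equality. Of 7 genes around EIF2 4 were below wild-type, 2 above and 1 exactly equal. Ppp1r15a, which reverses EIF2 phosphorylation, differed by -0.15 and the transcription factor gene Atf4 by -0.12, neither with an unadjusted p under 0.05. Of 6 genes of the interferon receptor and its transcription complex 5 were below and 1 above, led by Irf9 at -0.13 and Stat2 at -0.11.

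The OAS and IFIT genes, antiviral effectors that bind RNA in the cytosol, had the lowest median of the 10 lists, at -0.20, with 8 of 9 below wild-type and 1 exactly equal. Oasl2 differed by -0.54 (standard error 0.18) and by -0.56, -0.48 and -0.59 in the pairs, and Ifit1 by -0.59 (standard error 0.17) and by -0.99, -0.65 and -0.13. Both had groups that did not overlap, limma unadjusted p-values of 0.0203 and 0.0121 and adjusted p-values of 1. The sensor genes, with a median of -0.10, were thus nearer to wild-type than these effectors, but the 2 sets were not tested against each other and both use the same 6 arrays.

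**Figure D4:**
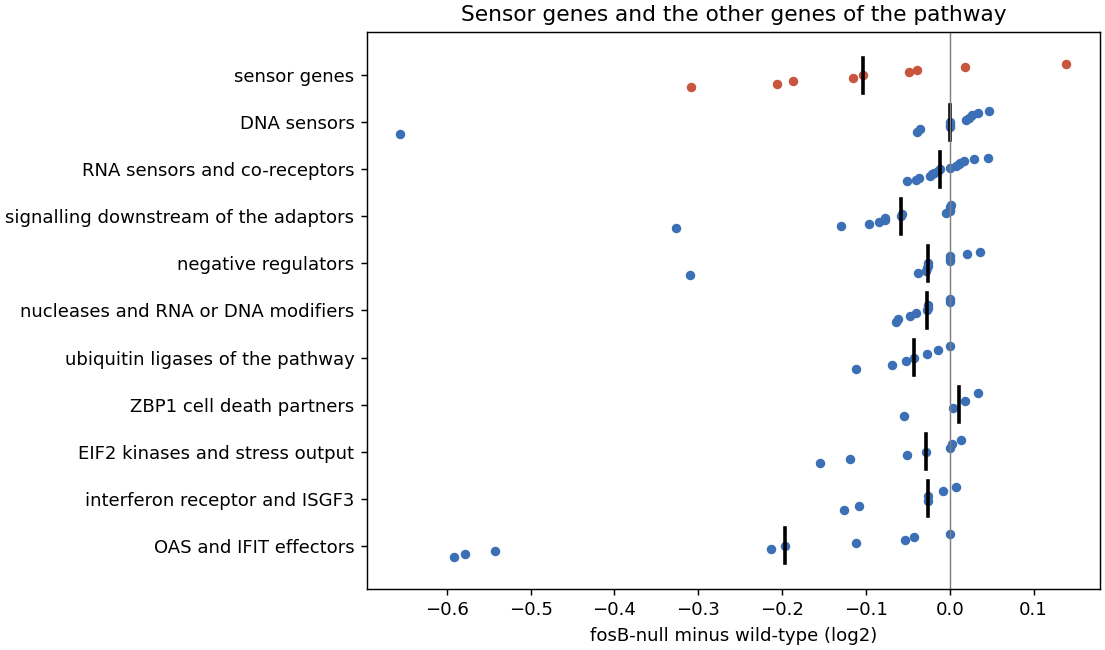
Differences between fosB-null and wild-type (log2) for the 9 sensor genes in red and for the other pathway genes in blue, 1 point a gene and 1 line a list, with the black bar at the median of each list. Ifi205, Irf7 and Usp18 stand below the rest of their lists, and the OAS and IFIT effectors have the lowest median.

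The genes whose centred profile over the 6 arrays was most like the mean profile of the members were Ube2e3, a ubiquitin-conjugating enzyme, Timm8a1, of mitochondrial protein import, Ctnnbl1, Trnau1ap and Zfp608. Their root mean square differences from that profile were 0.018, 0.019, 0.020, 0.020 and 0.020 on the log2 scale, and their own differences between groups ran from -0.11 to -0.06. None of these 5 genes is in the pathway lists. Each was lower in all 3 pairs, with no tie. The profile they were matched to was itself lower in each pair, so these differences are no separate result.

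The labelled cell type was examined through 7 microglial markers, which included Cx3cr1, Csf1r and Trem2. Their summed linear signal was 36350 to 40992 on wild-type and 37574 to 40693 on fosB-null arrays. By their means 6 of the 7 lay above wild-type and 1 below, with a median difference of 0.06, in the opposite direction to the sensors. Their median was 0.08, -0.0056 and 0.02 in pairs 1, 2 and 3, so pair 2 did not share that direction. Of the 7 genes 4 were tied in at least 1 pair. Of the markers of other cells, those of the oligodendrocyte lineage (5 of 6 measured) lay in the same direction as the sensors, with a median of -0.15, 4 of 5 below wild-type and a summed signal of 2061 to 2419 against 1953 to 2127. The median of this list was -0.32 in pair 1 and 0 in pairs 2 and 3, with 3 of the 5 genes tied in at least 1 pair. In 1 of the 5 all 3 pairs were lower and the groups did not overlap. The median of the sensors was -0.12, -0.06 and -0.05 in pairs 1, 2 and 3. The part of these marker lists in the sensor values was not tested. Astrocyte markers, 6 of 6 measured, were tied in every pair, with sums of 932 to 987 in both groups. These equal sums follow from the ties and measure no equality. Neuron markers (6 of 6) summed to 960 to 1052 against 960 to 1056, blood leukocyte markers (5 of 7) to 445 to 512 against 459 to 518, and fibroblast and mural cell markers (6 of 6) to 1830 to 2000 against 1684 to 1994. In this last list 5 of 6 genes had higher means in fosB-null cells, with a median of 0.02, and Igfbp5 alone a lower one, at -0.33.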

How the data were processed

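RNA (100 ng of total RNA per array, per the labels' protocols) was amplified into biotinylated sense-strand DNA and hybridised to 6 arrays. The deposited values are log2 signals, 1 per probe set and array, which the authors made, per the submitters' processing notes, in Affymetrix Expression Console. The scale was read from the values, and no source used here gives the version, summary method or normalization. Array medians were 7.76 to 7.92. The platform table gave 21789 probe sets 1 gene, 1621 several and 12147 none. RefSeq names came from GRCm38.p6 by gene number. limma 3.58.1 in R 4.3.3 (lmFit, eBayes) compared the groups with no block and no filter and was tested on simulated data. The number of arrays limits the precision. Deviations of same-numbered arrays from their group means correlated at 0.91, 0.82 and 0.82, and the arrays were taken as paired on this ground, since no label gives a pairing. The members and lists were chosen with earlier results of these data known, so their summaries carry no test. Named genes are the 9 members, up to 2 per pathway list with the lowest p, and the 5 of most similar profile. Pathway genes named outside this rule are marked, and Fosb, C5ar2 and the cell type markers are named as checks on the arrays. The alternatives were other sets of tested probe sets, rescaling, a filter on the dimmest 40%, other moderation, blocks on the replicate number and leaving out arrays.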

Additional observations from a re-analysis of the deposited data

How the results depend on the processing

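No sensor gene passed the adjusted threshold in any of the 19 alternatives, and the lowest adjusted p was 0.0851, for Dhx58 with the random replicate block. The count below wild-type was 5 to 8 of 9. The replicate block, also with a prior from probe sets not tied in every pair, called 0 probe sets over all genes, the random replicate block called 47, and neither changed a call among the 9 genes. With single arrays left out the count over all genes was 1 to 2, with both arrays of a number left out it was 0, and the median difference of the sensor genes ran from -0.20 to -0.0070. With both arrays of replicate 1 left out the median was -0.06. Signs turned in genes near 0: Eif2ak2 had -0.0061 with median centring and, over single arrays left out, -0.0337 to 0.0689; Ifih1 ran from -0.16 without fosB-null replicate 2 to 0.0534 without fosB-null replicate 3, and Mavs from -0.15 to 0.0549 in these cases, with 0.04 without wild-type replicate 2 and 0.02 when both arrays of replicate 3 were left out. Over single arrays left out Trim25 ran from -0.23 to -0.02, Zbp1 from -0.20 to -0.0070 and Ifi203 from -0.42 to -0.04. The cause was not tested. Averaging several probe sets of a gene was not run, as each of the 9 had 1, and all 9 passed the filter on dim probe sets.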
